A study of Xenopus laevis with 11 samples.

Results

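Follistatin, Chordin, Noggin and Gremlin are secreted proteins that hold signalling ligands of the TGF-beta family outside the cell. Their transcripts were compared between dissected tissues of the frog Xenopus laevis at stages around neural crest induction. The members were all probe sets whose single gene symbol, without regard to case or to the .L or .S suffix, named fst, chrd, nog or grem1. The platform's own symbols gave 3 probe sets (fst.L, nog.L and grem1.L). Chordin's 2 probe sets carry the symbol chrd.1.S and were matched through the RefSeq synonym chrd by gene ID. These 5 probe sets of 4 genes stood among 15491 probe sets that are not controls. The suffixes mark the gene copies on the long and short chromosomes of this allotetraploid species. The homeologs fst.S, nog.S and chrd.1.L are not analysed here.

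The study hybridised total RNA of tissue dissected from embryos to 11 Affymetrix arrays. The labels name the stage 12 neural plate (n = 2), the stage 14 neural border (n = 3) and the stage 18 neural border (n = 2). These tissues were set beside the stage 18 anterior neural fold (n = 3), a stretch of border that makes no crest. The last group was an animal cap explant cultured to stage 14, which becomes epidermis (n = 1). All embryos were raised at 15 °C, and the labels give no genotype, injection or drug for any group. Different tissues share a stage only in the stage 18 border and fold, and in the stage 14 border and cap. In every other comparison of different tissues, tissue and stage cannot be told apart. Words such as rise and fall name a difference between groups, not a course followed in 1 tissue. The arrays are called biological replicates, but no label says that they came from separate clutches, so a p-value covers no more than the variation among these arrays, part of which may be technical. The animal cap has no SD, and the model gives it the spread of the remaining groups.

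As background, bone morphogenetic proteins (BMPs) drive ectoderm toward epidermis, and their antagonists, secreted by the dorsal organizer and later by midline and neural tissues, leave ectoderm free to become neural. Chordin and Noggin bind BMPs and keep them from their receptors. Tolloid-type proteases cut Chordin and free the ligand. Follistatin binds activin most tightly and also binds several BMPs. Gremlin 1 is a BMP antagonist of the DAN family. The neural crest forms where BMP activity is intermediate, at the edge of the neural plate, and later needs BMP signalling for its maintenance.

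Levels are deposited log2 intensities, so a difference of 1 is a 2-fold difference, and levels are compared between arrays of 1 probe set, never between probe sets. The 95th percentile of 17 tag controls, which match no frog gene, was 3.72, and a level under it was taken as within background. In dissected tissue, fewer cells that express a gene and less RNA per cell cannot be told apart. Array medians ran from 4.94 to 5.04, and within groups the pairwise correlation of arrays was 0.983 to 0.993. The labelled tissues matched their markers: 9 of 10 neural crest and border markers were higher and 9 of 10 anterior fold and forebrain markers lower in the stage 18 border than in the anterior fold, and 7 of 7 neural plate markers were higher and 8 of 9 epidermis markers lower in the stage 14 border than in the animal cap.

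The fst.L level was highest in the neural border, and higher at stage 18 than at stage 14. It read 4.21 and 4.57 in the stage 12 plate, 5.27, 5.47 and 4.96 in the stage 14 border, 7.21 and 6.96 in the stage 18 border, 4.27, 4.27 and 4.22 in the anterior fold, and 4.34 in the animal cap. Every stage 14 border array lay above the plate, fold and cap arrays, and both stage 18 border arrays lay above all others. All 11 arrays were above the background level. The means were 4.39 ± 0.26 (SD, n = 2) in the plate, 5.23 ± 0.26 (SD, n = 3) in the stage 14 border and 7.09 ± 0.17 (SD, n = 2) in the stage 18 border, against 4.26 ± 0.03 (SD, n = 3) in the fold. The border's increase over the plate and between its stages was known when fst.L was chosen and is given without a test: the stage 14 border exceeded the plate by 0.84 (SE 0.17, 1.79-fold), and the stage 18 border exceeded the stage 14 border by 1.85 (SE 0.17, 3.61-fold).

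Plate, animal cap and anterior fold followed the border in that order for fst.L, and no difference among these tissues passed the test. The plate minus cap difference was 0.05 (95% interval -0.45 to 0.55, limma adjusted p = 0.899), the fold minus cap difference -0.08 (-0.56 to 0.39, adjusted p = 0.79) and the fold minus plate difference -0.13 (-0.51 to 0.24, adjusted p = 0.561). At stage 18, the 2 parts of the border stood far apart: fst.L was 7.11-fold higher in the neural border than in the anterior fold (log2 difference 2.83, SE 0.17, adjusted p = 8.32e-06), with no overlap of arrays. Only 0.342% of all probe sets had a larger absolute difference in that comparison. The stage 14 border also differed from the later fold, where fst.L was lower by a log2 difference of -0.98 (SE 0.15, adjusted p = 0.00243). Against the animal cap, fst.L was 6.71-fold higher in the stage 18 border (adjusted p = 2.76e-05) and 1.86-fold higher in the stage 14 border (log2 difference 0.89, SE 0.21, adjusted p = 0.00981). These tests use the border arrays in which the increase was seen, and are no separate evidence of it.

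**Figure D1:**
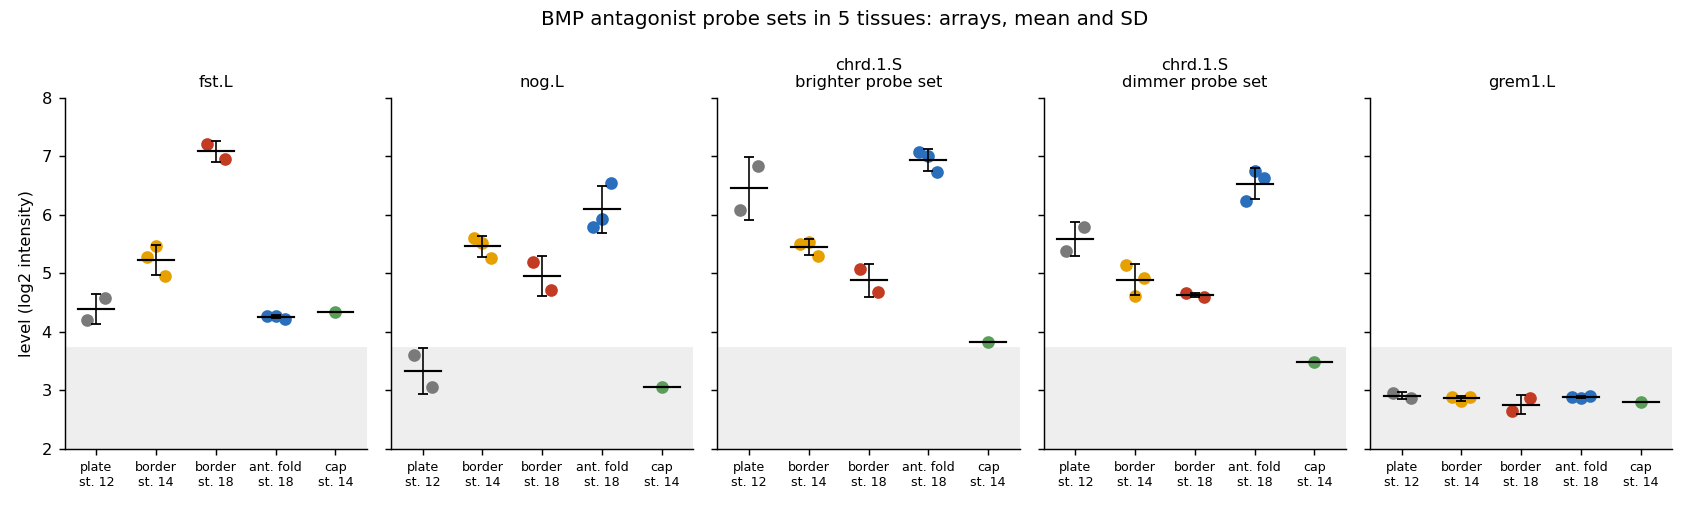
The y axis gives the log2 intensity of each of the 5 probe sets in the 5 tissues along the x axis; points are arrays, horizontal lines group means, and bars the SD of groups with 2 or 3 arrays. The grey band marks levels under 3.72, within background. In fst.L the stage 18 border stands above every other tissue, whereas in nog.L and chrd.1.S the anterior neural fold has the highest mean.

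Noggin's transcript was at background in the plate and in the animal cap and above it in all 8 arrays of border and fold. The nog.L probe set read 3.61 and 3.05 in the stage 12 plate, 5.60, 5.52 and 5.26 in the stage 14 border, 5.19 and 4.72 in the stage 18 border, 5.79, 5.94 and 6.55 in the anterior fold, and 3.06 in the cap. The groups did not overlap except for the plate and the cap. The stage 14 border averaged 5.46 ± 0.18 (SD, n = 3) and the plate 3.33 ± 0.39 (SD, n = 2). The difference was 2.13 (SE 0.25, adjusted p = 0.000114), which is at least 3.33-fold when the plate is set to the background level.

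Within the border, nog.L was not higher at the later stage. The mean was 4.95 ± 0.34 (SD, n = 2) at stage 18, a difference of -0.51 from stage 14 that did not pass (SE 0.25, 95% interval -1.07 to 0.06, adjusted p = 0.302), although the arrays did not overlap. The anterior fold, at 6.09 ± 0.41 (SD, n = 3), had the highest nog.L level. It exceeded the stage 18 border, where nog.L was 2.2-fold lower (log2 difference -1.14, SE 0.25, adjusted p = 0.0274). That call was lost in 5 of 17 alternative settings, among them those without stage 18 border replicate 2 (-0.90, adjusted p = 0.209), without fold replicate 2 (-1.22, adjusted p = 0.0537) and without fold replicate 3 (-0.91, adjusted p = 0.0665), and with the replicate number as a block (-1.07, adjusted p = 0.0681). The fold minus stage 14 border difference, 0.63 (95% interval 0.12 to 1.14, adjusted p = 0.0943), did not pass. The stage 18 border was at least 2.35-fold above the stage 12 plate (adjusted p = 0.000948). Against the animal cap, nog.L was at least 5.17-fold higher in the fold (adjusted p = 7.55e-05), at least 3.33-fold higher in the stage 14 border (adjusted p = 0.000416) and at least 2.35-fold higher in the stage 18 border (adjusted p = 0.00219).

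Chordin's transcript was high in the stage 12 plate and in the anterior fold, intermediate in the border and lowest in the animal cap. The chrd.1.S probe set with the higher mean, called the brighter one, read 6.08 and 6.83 in the plate, 5.50, 5.54 and 5.29 in the stage 14 border, 5.08 and 4.68 in the stage 18 border, 7.08, 7.01 and 6.73 in the fold, and 3.82 in the cap. Only the plate and the fold overlapped. The dimmer probe set read 5.38 and 5.80 in the plate, 5.15, 4.61 and 4.92 in the stage 14 border, 4.66 and 4.60 in the stage 18 border, 6.23, 6.74 and 6.63 in the fold, and 3.48, within background, in the cap. Here the 2 stages of the border overlapped, and the plate and the fold did not. The order of the 5 group means was the same for both probe sets, which had r = 0.95 and rho = 0.90 over the 11 arrays, a description of 2 probe sets that share their target and their samples.

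Both chordin probe sets fell in the stage 14 border relative to the plate. The brighter one averaged 5.44 ± 0.14 (SD, n = 3) at the border and 6.45 ± 0.53 (SD, n = 2) in the plate, 2.01-fold lower (log2 difference -1.01, SE 0.22, adjusted p = 0.00432). For the dimmer one the difference was -0.70 (SE 0.20, adjusted p = 0.0189, 1.62-fold). The dimmer probe set's call was lost without plate replicate 2 (-0.49, adjusted p = 0.164) and without stage 14 border replicate 2 (-0.56, adjusted p = 0.0568). Between the border stages neither probe set passed: the stage 18 minus stage 14 differences were -0.56 (95% interval -1.05 to -0.07, adjusted p = 0.177) and -0.26 (-0.71 to 0.19, adjusted p = 0.525). Set against the plate, the stage 18 border was lower in both (-1.57, adjusted p = 0.000477, and -0.96, adjusted p = 0.00532).

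The difference in chordin between the 2 kinds of stage 18 border tissue ran opposite to that of follistatin. The brighter probe set was 4.17-fold lower in the neural border, at 4.88 ± 0.28 (SD, n = 2), than in the anterior fold, at 6.94 ± 0.19 (SD, n = 3; log2 difference -2.06, SE 0.22, adjusted p = 0.000429). The dimmer one was 3.74-fold lower (log2 difference -1.90, SE 0.20, adjusted p = 0.000417). In that comparison 0.762% and 0.942% of all probe sets had a larger absolute difference than the brighter and the dimmer probe set. The fold and the plate could not be ordered by the brighter probe set (fold minus plate 0.49, SE 0.22, adjusted p = 0.0953), which passed only without plate replicate 2 (0.87, adjusted p = 0.00923), whereas the dimmer one was higher in the fold (0.94, adjusted p = 0.0031). Every neural tissue exceeded the animal cap in both probe sets. For the brighter one the difference from the cap was 2.63 in the plate (6.2-fold, adjusted p = 0.000141), 1.62 in the stage 14 border (3.08-fold, adjusted p = 0.00175), 1.06 in the stage 18 border (adjusted p = 0.0203) and 3.12 in the fold (adjusted p = 2.8e-05). The stage 18 border call was lost without its replicate 1 (adjusted p = 0.0859) and in a fit of only the arrays compared (adjusted p = 0.0798).

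The grem1.L probe set was within background on all 11 arrays, between 2.64 and 2.95, and passed in no comparison. With no level above background, it gives no order of the tissues.

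Counted over the probe sets, the antagonists moved in different directions. From the stage 12 plate to the stage 14 border, 1 of the 4 probe sets other than fst.L was higher (nog.L), 2 were lower (both of chordin) and 1 did not pass, where 41% of all probe sets passed, 19.6% higher and 21.4% lower. Between the stage 18 and the stage 14 border 0 of these 4 passed by limma, where 6.56% of all probe sets passed, 3.78% higher and 2.78% lower. Before adjustment 1 of the 4 had a limma p under 0.05. The share of all probe sets under that unadjusted threshold was not counted, so the 6.56% does not stand beside it. Between the stage 18 border and the anterior fold, 1 of 5 was higher (fst.L), 3 were lower (nog.L and both of chordin) and 1 did not pass. There 5.97% of all probe sets passed, 3.31% higher and 2.67% lower. Between the stage 14 border and the cap, 4 of 5 were higher and 1 did not pass, where 30.9% passed, 15.1% higher and 15.8% lower. The median difference was -0.37 and -0.38 in the first 2 of these 4 comparisons, over the 4 probe sets without fst.L. It was -1.14 and 1.41 in the last 2, over all 5, so the 2 pairs of medians are not of the same set. The medians over all probe sets were 0.01, -0.02, 0.002 and -0.04 in turn. In the other pairs, 3 of 5 passed between the fold and the stage 14 border (14.8% of all probe sets), 2 of 5 between the fold and the plate (47.5%), 2 of 5 between the plate and the cap (31.3%), 3 of 5 between the fold and the cap (38.6%), 4 of 5 between the stage 18 border and the cap (33.2%), and 3 of the 4 other than fst.L between the stage 18 border and the plate (44.5%). Counts out of 5 include fst.L, whose increase in the border was known when it was chosen, and every count holds 2 probe sets of the same gene, chordin. Comparisons that use the same arrays are not independent of each other.

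**Figure D2:**
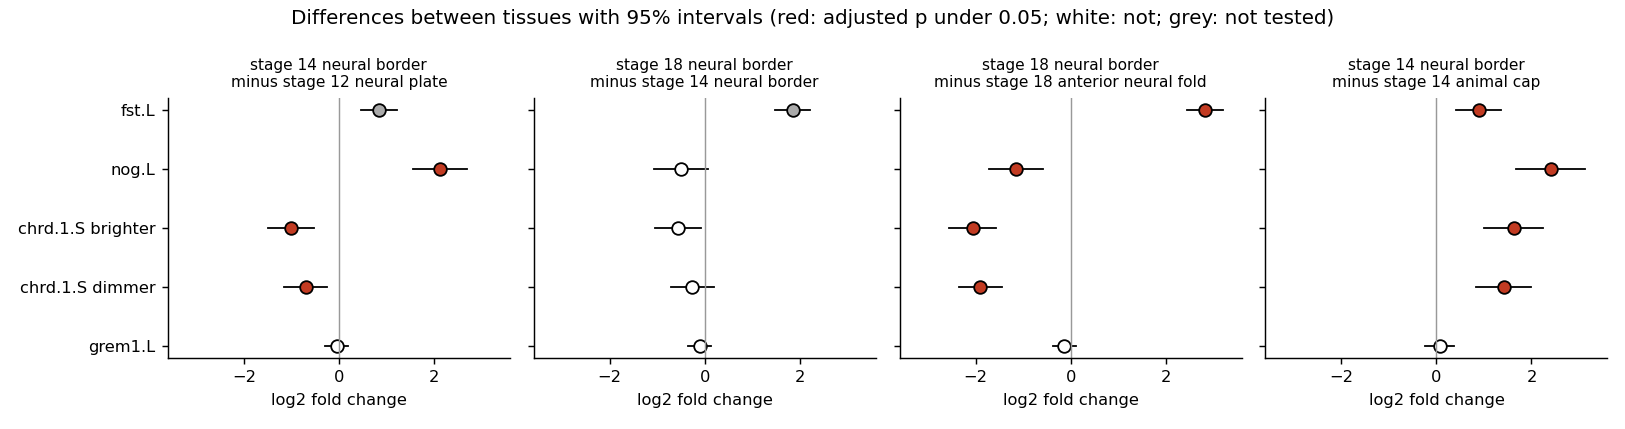
Each panel gives 1 comparison; the x axis is the log2 difference, points are the estimates of the model over 11 arrays and lines their 95% intervals. Red points passed an adjusted p of 0.05, white points did not, and grey points (fst.L across stages) are shown without a test. Against the anterior fold, fst.L lies at 2.83 and both chordin probe sets near -2, at -2.06 and -1.90.

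The ligands that these proteins bind were measured by lists of BMP and of activin, nodal and GDF genes. Counts in this and the following lists stand beside the shares of all probe sets that passed. A list gene is read from its brightest probe set, whereas the shares cover probe sets at any level, so the comparison is rough. Between the stage 14 border and the plate 41% passed, and between the border stages 6.56%. Between the stage 18 border and the fold 5.97% passed, and between the stage 14 border and the cap 30.9%. A count near its share is no result about the list. From the plate to the stage 14 border, 1 of 7 BMP ligand genes rose, 3 fell and 3 did not pass. In the border, bmp7.2.L averaged 6.0 ± 0.54 (SD, n = 3), and the plate had 11.25 ± 0.23 (SD, n = 2; adjusted p = 8.5e-07), and bmp4.S fell to 3.14, within background, against 5.62 in the plate, at least 3.71-fold (adjusted p = 1.91e-05). The third was admp.S, a BMP-like ligand of the organizer, which averaged 4.34 ± 0.34 in the border (SD, n = 3), against 8.01 ± 0.35 in the plate (SD, n = 2; 12.7-fold lower, adjusted p = 4.82e-05). Among 11 activin, nodal and GDF genes 1 rose and 4 fell. The one that rose was inhbb.L, which encodes the activin B subunit, a ligand class of Follistatin (4.95 ± 0.08 in the border, n = 3, against 4.29 ± 0.16 in the plate, n = 2, SD; adjusted p = 0.00187), named after its values were seen. The largest fall was that of tdgf1.3.L, a Cripto-type Nodal co-receptor that stands in this list, at 4.86 in the border against 11.29 in the plate.

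Between the border stages, 2 of 7 BMP ligand genes passed, in opposite directions. The bmp7.1.L level was 6.54 ± 0.10 (SD, n = 2) at stage 18 and 5.37 ± 0.28 (SD, n = 3) at stage 14 (2.24-fold higher, adjusted p = 0.00582), and bmp7.2.L was 3.72-fold lower at stage 18 (adjusted p = 0.00432). Neither inhbb.L, with a difference of 0.03 (adjusted p = 0.938), nor any other gene of its list but tdgf1.3.L (1.82-fold lower, adjusted p = 0.0477) passed while fst.L stood 1.85 higher.

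Among receptors, 5 of 8 fell from the plate to the stage 14 border and 0 rose, with tgfbr1.S 2.58-fold, rgma.L 2.44-fold and the BMP receptor gene bmpr1a.L 2.15-fold lower (3 of its 4 probe sets passed). Of all probe sets, 19.6% were higher and 21.4% lower in that comparison. The list of Smad transducers, which carry the signal to the nucleus, had 1 of 7 genes higher and 1 lower, not above those shares. The higher gene, znf521.S (2.49-fold), is not itself a Smad gene, and the lower one was smad1.S (1.80-fold). Between border stages, and between the stage 18 border and the fold, 0 of 8 receptor genes and 0 of 7 genes of the Smad list passed by limma. Only 6.56% and 5.97% of all probe sets passed there, so counts of 0 in lists this short show nothing particular to them.

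The list of feedback inhibitors and target genes of BMP signalling had genes that passed in both directions. From the plate to the stage 14 border 19.6% of all probe sets were higher and 21.4% lower, so the count of falls in this list is near its share. Between the border stages 6.56% of all probe sets passed, and between the stage 18 border and the fold 5.97%. From the plate to the stage 14 border 7 of 21 rose, among them msx2.L (8.31-fold, 1 of its 2 probe sets) and msx1.L (4.75-fold), border transcription factor genes that BMP induces, and 5 fell, among them ventx2.1.S, a ventral target gene (6.73-fold lower, adjusted p = 1.87e-05). Between the border stages 2 of 21 fell, ventx2.1.S (2.01-fold, adjusted p = 0.0402, 1 of its 2 probe sets) and the inhibitory Smad gene smad6.L (1.52-fold, adjusted p = 0.0207), and 0 rose. In the stage 18 border, 3 of 21 were higher than in the anterior fold and 0 lower: tfap2a.L at 9.27 against 6.93 (5.06-fold, adjusted p = 8.32e-06), msx2.L at 7.70 against 5.40 (4.93-fold, adjusted p = 9.91e-05, 1 of its 2 probe sets) and msx1.L (2.08-fold, adjusted p = 0.019). These 3 genes are also border and crest genes.

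Proteins that act on the antagonists, or beside them, were measured as well. The twsg1.L gene encodes Twisted gastrulation, which binds BMP together with Chordin. It fell to 4.37 ± 0.18 (SD, n = 3) in the stage 14 border, against 7.15 ± 0.31 (SD, n = 2) in the plate (6.85-fold, adjusted p = 1.7e-06). Of the other 7 secreted binding proteins, 3 rose, among them the follistatin-like gene fstl1.L (2.35-fold, adjusted p = 0.00194), 1 fell and 3 did not pass. The gene that fell was dand5.S, at 4.52 in the stage 14 border against 7.13 in the plate (6.13-fold lower, adjusted p = 9.74e-06). Between the stage 18 border and the fold 1 of these 8 passed, frzb.L, a Wnt-binding protein gene that stands in this list (3.33 in the border, within background, against 6.37 in the fold, adjusted p = 1.21e-06, 1 of its 2 probe sets). The Chordin protease gene tll1.S was within background in plate and border and read 3.21 and 3.14 in the stage 18 border, against 5.32, 5.88 and 5.85 in the anterior fold (at least 3.9-fold lower in the border, adjusted p = 3.02e-05). The fold had higher levels of both chordin probe sets and of this protease gene. It was also higher in admp.S, at 5.83, 5.63 and 7.05, against 4.34 and 3.98 in the stage 18 border (4.04-fold lower in the border, adjusted p = 0.012, 1 of its 2 probe sets). In the animal cap, where both chordin probe sets had their lowest level, tll1.S read 6.61.

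Against the animal cap, 26 of the 66 pathway genes were lower in the stage 14 border, 10 were higher and 30 did not pass, beside the higher levels of fst.L, nog.L and both chordin probe sets. Of 21 feedback and target genes 12 were lower and 3 higher. The szl.L gene, whose product Sizzled inhibits the Chordin proteases, was at background in the border, at least 25.2-fold lower than in the cap (adjusted p = 1.82e-08). The pseudoreceptor gene bambi.L read 4.66 ± 0.03 (SD, n = 3) in the border against 9.59 in the cap (30.5-fold lower, adjusted p = 1.26e-06), and gata2.L, an epidermal and ventral factor, was 18.5-fold lower. Of 7 BMP ligand genes 3 were lower and 0 higher: bmp7.2.L by 39.7-fold, bmp7.1.L by a log2 difference of -3.63 and bmp4.S by at least 7.49-fold. Chordin's partner twsg1.L was 25.3-fold lower, and the Chordin protease gene tll1.S at least 7.40-fold lower. Lower too was furin.L (3.88-fold, 4 of its 5 probe sets passed), which stands in the protease list but is not a Tolloid-type gene. Other lists changed in both directions. Of 8 receptor genes 2 were higher and 4 lower, and of 7 genes of the Smad list 2 were higher and 2 lower. Of 8 other secreted binding proteins 2 were higher and 3 lower, while inhbb.L was the 1 of 11 activin, nodal and GDF genes that passed (1.54-fold higher). Among the genes higher in the border were the BMP co-receptor gene rgma.L (4.79-fold), smad4.L, the common Smad (2.87-fold), and kcp.L (2.87-fold). Also higher was znf521.S, which stands in the Smad list but is not a Smad gene (at least 4.47-fold).

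**Figure D3:**
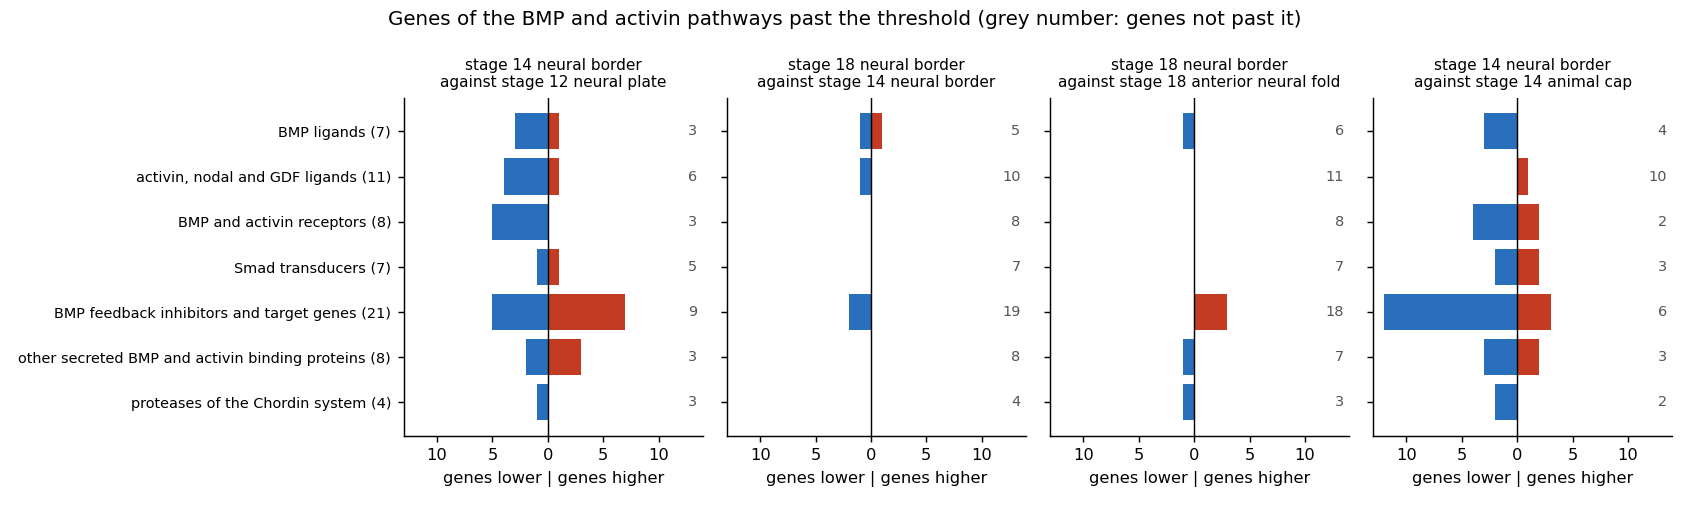
Bars give, for 7 lists with the number of measured genes in brackets, how many genes passed an adjusted p of 0.05 as lower (blue, left) or higher (red, right) in each of 4 comparisons; the x axis counts genes and grey numbers those that did not pass. Of 66 genes 34 passed between the stage 14 border and the plate and 36 between the stage 14 border and the cap, against 5 between the border stages and 6 between the stage 18 border and the fold.

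Over the 66 genes of these lists, 13 were higher and 21 lower in the stage 14 border than in the plate, or 51.5% past the threshold beside the 41% of all probe sets. The share was 7.58% beside 6.56% between the border stages, 9.09% beside 5.97% between the stage 18 border and the fold, and 54.5% beside 30.9% against the cap. Each of the 66 genes was read from its brightest probe set, whereas the shares cover all probe sets at any level, unnamed ones included. These are unlike measures, so a gap between them is not read as a result about the pathways. Leaving out stage 18 border replicate 1 took the 5 calls between the border stages to 2, and leaving out any one array of the stage 14 border or of the anterior fold took them to 3.

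Markers of other cells moved with some of these differences. The axial mesoderm, organizer and notochord list (13 genes) had 6 genes lower and 1 higher in the stage 18 border than in the anterior fold. Its summed linear level was 223 to 255 in the stage 18 border and 702 to 1040 in the fold, and 7 to 9 of its 13 genes in the border and 7 in the fold were within background. The list shares otx2.S with the forebrain list, at 6.33 in the border against 8.86 in the fold. Without it, in sums made after the values were seen, the other 12 genes came to 153 to 159 in the border and 380 to 474 in the fold. The gsc.L gene of the prechordal mesoderm read 3.12 in the border against 6.12 in the fold (2 of its 3 probe sets passed), and shh.L, a midline signal, 3.86 against 6.35. The defining notochord gene tbxt.S was within background in both, at 3.15 in the border and 3.3 in the fold. From the plate to the stage 14 border 1 gene of this list rose and 3 fell, with sums of 388 to 444 in the border and 589 to 733 in the plate, and tbxt.S fell to 3.19 against 5.93 in the plate. In the same comparison 4 of 7 neural plate markers were lower and 1 higher, with sums of 4765 to 5280 in the border and 8673 to 9810 in the plate. Of 9 epidermis markers 6 were higher and 0 lower, with sums of 7081 to 9223 in the border and 3578 to 3673 in the plate. Cement gland and hatching gland markers were lower in 3 of 5 genes in the stage 18 border than in the fold, with sums of 2807 to 2935 in the border and 5334 to 5872 in the fold. Among these 3 were the cement gland genes agr2.S and pitx1.L. The part of these cells in the chordin and noggin differences was not tested.

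Beside fst.L, the neural crest markers were higher in the stage 18 border than in the fold, as given above. Between the border stages 1 of 10 neural crest and border markers was higher at stage 18, 1 was lower and 8 did not pass. Of all probe sets 6.56% passed there. The summed linear levels of the crest and border markers were 3781 to 3964 at stage 18 and 3382 to 3674 at stage 14. Epidermis markers had summed linear levels of 15316 to 18883 in the stage 18 border, against 7081 to 9223 in the stage 14 border and 11056 to 11619 in the fold. Of 5 cement gland and hatching gland markers 3 were higher in the stage 18 border, with sums of 2807 to 2935, than in the stage 14 border, with sums of 1064 to 1351. Among these 3 were the hatching gland genes astl3a.1.L (log2 difference 4.98) and xa-1.L (1.36), so the joint count does not speak for the cement gland. The part of these cells in the fst.L differences was not tested. In the animal cap, whose epidermis sum of 23239 was the highest of the 11 arrays, fst.L was 4.34. Of 10 paraxial mesoderm and muscle markers, 9 to 10 were within background on the stage 18 border arrays, and 0 passed by limma against the stage 14 border. Readings of the 3' and 5' control probe sets differed slightly between groups. The actin 3' minus 5' difference averaged -2.93 in the stage 14 border and -2.51 in the plate, without overlap, and that of Gapd 2.29 and 2.30. The animal cap array had the lowest value of the 11 arrays in both, -3.14 for actin and 1.85 for Gapd. On every array the actin 3' reading lay under the 5' reading, so the actin difference is not read here as a measure of RNA integrity. The part of RNA quality in the differences was not tested.

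The antagonists had different profiles over the 11 arrays. Pearson's r was 0.38 between nog.L and the brighter chordin probe set, 0.08 between nog.L and fst.L, and -0.51 between that chordin probe set and fst.L. These values describe 11 arrays that fall into 5 tissues, and carry no test.

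The probe sets whose profile was most like fst.L, among 4244 with 1 symbol and group means that span at least 1, were tshz3.L (r = 0.982 over 11 arrays), hoxa2.S (0.981), snap25.L (0.970), hoxa3.S (0.965) and sox10.L (0.949). In the stage 18 border hoxa3.S, a Hox gene of the hindbrain and posterior head, averaged 5.39, against 2.93 in the anterior fold, and sox10.L, a crest transcription factor gene, averaged 7.01 against 3.09. The highest group means of tshz3.L, hoxa2.S and snap25.L were 3.87, 4.03 and 4.07, close to background. Most like nog.L were pax6.L, a transcription factor gene of the forebrain and eye, by 2 of its 6 probe sets (r = 0.974 and 0.972), dtymk.S (0.973), chtf8.L (0.968) and nr2f2.L (0.966). Most like the brighter chordin probe set were rbpj.S, the transcription factor of Notch signalling (0.933), the cyclin gene ccnd1.S (0.928), ppfia1.S (0.927), otx2.S, a head organizer and forebrain factor (0.927), and hes4.S (0.925). The choice of the best among so many fixes high values, and the likeness of grem1.L, at background throughout, was not read.

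**Figure D4:**
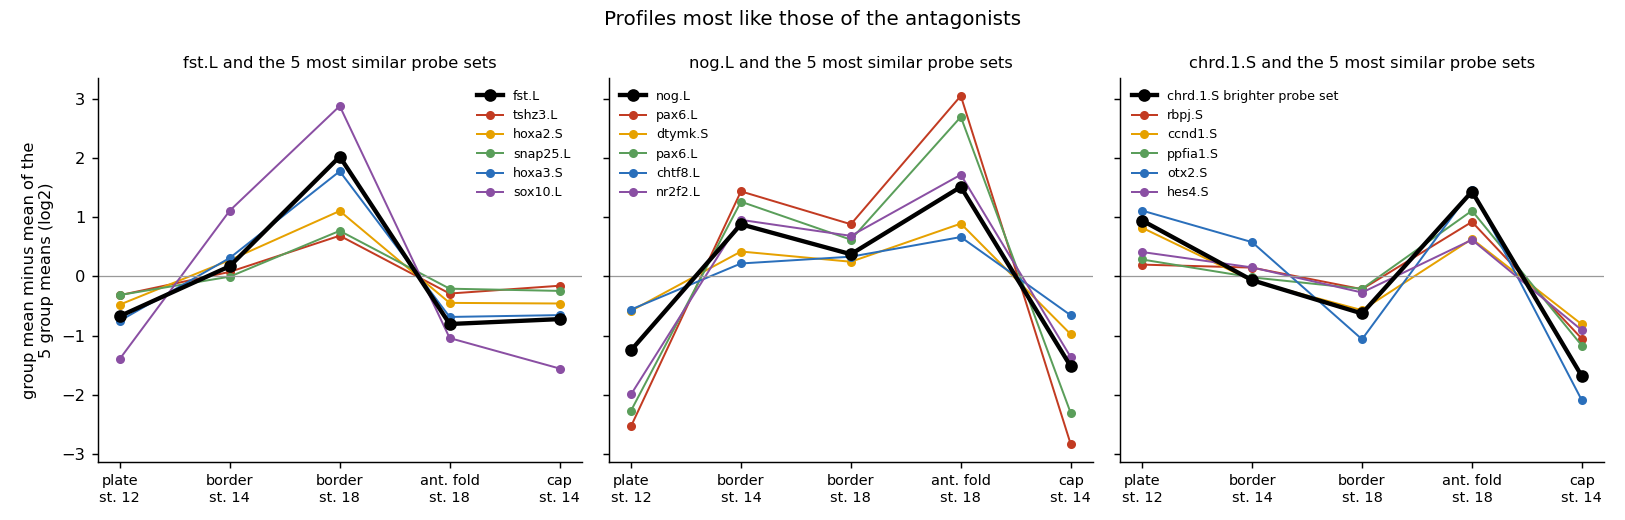
Lines join the 5 group means of each probe set after the mean of the group means was subtracted (y axis, log2), in the tissues along the x axis; black is the antagonist and colours its 5 most similar probe sets. The antagonists themselves peak in the stage 18 border (fst.L) and in the anterior neural fold (nog.L and chrd.1.S); ccnd1.S, in the chordin panel, peaks in the stage 12 plate.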

How the data were processed

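The deposited table of the authors holds 1 value per probe set and array, taken as log2 intensities from their range (2.13 to 13.56); the submitters' processing notes name R 2.14.2, and background correction, summary and normalization are not given in the sources used here. Whether genes were also centred is unknown; array medians were 4.94 to 5.04. Symbols came from the platform annotation, updated by RefSeq gene ID. All 11 arrays entered 1 limma 3.58.1 model (R 4.3.3) with a mean per group and eBayes; p-values are two-sided, adjusted by Benjamini-Hochberg over 15491 probe sets, with a threshold of 0.05. The 120 control probe sets were left out. A pathway or marker gene was read from its brightest probe set (mean over arrays). Up to 3 genes of each pathway list and 2 of each marker list were named, those past the threshold with the largest change and no overlap of arrays, or the 2 largest where none passed; other markers stand as levels. The members and lists were chosen with earlier results of these data known. "At least" folds set a group wholly within background to 3.72. Quantile normalization, median centring, a dim filter (grem1.L failed it, the other 4 members passed), trended moderation, array weights, the replicate block, fits of the arrays compared and leaving out each array were tried.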

Additional observations from a re-analysis of the deposited data

How the results depend on the processing

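Of the member results under up to 17 alternatives, 820 values kept direction and side of the threshold, 9 lost and 2 gained a call, and 9 changed sign, none of these past the threshold. The 820 include the increase of fst.L in the border over the plate and between border stages. That increase was known when fst.L was chosen, so the count is no support for it. With single arrays left out, fst.L ran from -0.13 to 0.23 in the plate minus the cap and from -0.32 to 0.048 in the fold minus the plate, and nog.L from -0.0038 to 0.55 in the plate minus the cap. For grem1.L, at background, the ranges were -0.062 to 0.013 in the fold minus the plate, -0.16 to 0.078 in the stage 18 border minus the cap and -0.22 to 0.013 between the border stages. Its fold minus plate difference was 0.014 and its stage 18 border minus cap difference 0.039 with quantile normalization, and its fold minus stage 14 border difference -0.0042 with median centring. The fold minus stage 14 border difference of nog.L passed with array weights (0.78, adjusted p = 0.0137).

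The 5 pathway genes past the threshold between the border stages became 2 in a fit of only the arrays compared, 3 with the replicate block, and 2 to 5 when single arrays were left out. Over all probe sets that comparison's 1016 calls became 233 when fitted alone, 620 under the replicate block and as few as 458 without 1 array, and the 925 between the stage 18 border and the fold as few as 543. The share of higher calls between the border stages was 57.6% as deposited and 46.6% after median centring. Replicate numbers showed no clear pairing of the arrays. In deviations from the group means, same-numbered arrays correlated at -0.10 to 0.26 in 13 pairs, 2 of them over 0.1. Of 10 arrays 4 correlated best with their own number. In a group of 2 arrays the deviations mirror each other, so these values cannot decide whether the numbers pair the arrays. The other calls lost stand beside their results. Groups of 1 to 3 arrays limit every value, and levels near 3.72 give lower bounds only; the cause of each change was not tested.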
